A study of Mus musculus with 6 samples.

Results

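The primary cilium is a single, mostly immotile projection on the surface of a cell, built on a basal body. Intraflagellar transport (IFT) particles carry its building material: the IFT-B complex moves outward with the motor kinesin-2, and the IFT-A complex supports the return with dynein-2. The BBS proteins sort membrane proteins in and out of the cilium, and the transition zone at its base acts as a gate. In vertebrate embryos the cilium is where cells receive Hedgehog signals, which pattern the ventral neural tube. The genes described here were those of this machinery on an Affymetrix mouse array. They were taken as all probe sets annotated to 1 gene symbol of the Ift, Bbs, Nphp, Tctn or B9d families, or to 1 of 23 further named cilium genes, of which 20 had such a probe set. This gave 78 probe sets of 48 genes, out of 45101 probe sets and 18193 singly annotated genes on the array, and all 78 were tested, since no filter on low values was made. Arl13b, Arl6 and Rpgrip1l were not analysed here.

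The samples were pieces of midbrain of C57BL/6 mouse embryos of mixed sex at embryonic day 10.5. The 3 floor plate samples came from the ventral midline. The 3 ventral lateral samples came from the region directly beside it, dissected without overlap. Each sample pooled tissue of 6 embryos and carried no mutation or treatment by its labels, and 5 ng of its RNA was amplified and biotin-labelled. Whether the same embryos gave tissue to both regions is not stated. The p-values set the difference between regions against the spread within regions among only these 6 pooled samples. In limma that spread is drawn towards a value common to all probe sets. In such pieces, fewer cells of a type and less RNA per cell cannot be told apart. The deposited values are on a log scale on which each probe set has a median of 0 across the 6 arrays. A value therefore says how samples differ, not how strongly a gene is expressed, and whether a probe set lies above background cannot be seen. Neither the log base nor the direction is stated, and both were assumed: base 2, and more RNA at higher values. The labelled regions fitted their markers: of 18 probe sets of floor plate genes 15 were higher and none lower in floor plate, and of 20 probe sets of ventral lateral progenitor and neuron genes none was higher and 15 lower. Foxa2, the forkhead factor of the floor plate, had a log2 fold change of 1.76 (limma, adjusted p = 0.0132).

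The comparison asked whether cells at the midline and cells beside it differ in the genes of the primary cilium. Of the 78 probe sets 2 were higher in floor plate and none was lower (limma, Benjamini-Hochberg adjusted p under 0.05 over 45037 probe sets). The same test called 2.7% of all probe sets as higher, 2.01% as lower and 4.71% in either direction, so the share of 2.56% among the cilium genes was near the background. The 2 belonged to Tctn2, a tectonic of the transition zone, and to Ift57, a subunit of IFT-B. At an unadjusted p under 0.05, 15 were higher and 2 lower, or 19.2% and 2.56%, against 8.37% and 8.12% of all probe sets. The 3 floor plate values lay above all 3 ventral lateral values for 17 probe sets of 17 genes, or 21.8%, and below them for 3, or 3.85%. Over all probe sets these shares were 11.5% and 11%. The cilium genes were taken from the 34945 probe sets with 1 symbol, of which 3.21% were called higher and 2.26% lower. In that group 9.4% were higher and 8.55% lower at an unadjusted p under 0.05. Its floor plate values lay above all ventral lateral values for 12.6% and below them for 11.7%.

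The differences were small. The log2 fold changes (floor plate minus ventral lateral) ran from -0.44 to 0.79, with a median of 0.073 against -0.0040 over all probe sets, and 53 of 78 were positive, or 67.9% against 49.2%. The median size regardless of sign was 0.12 among cilium genes and 0.13 over all probe sets. With a median SE of 0.11, the 95% interval of the difference, not adjusted for the number of probe sets, lay inside 2-fold in both directions for 77 of 78, all but Tctn2, and for 93.4% of all probe sets. It lay inside 1.5-fold for 62 of 78, or 79.5%, against 73% of all probe sets. Genes of motile cilia, which add beating machinery to a cilium, had 10 of 35 probe sets higher and none lower, and their median log2 fold change was 0.29. The plot of the distribution sets these side by side.

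**Figure D1:**
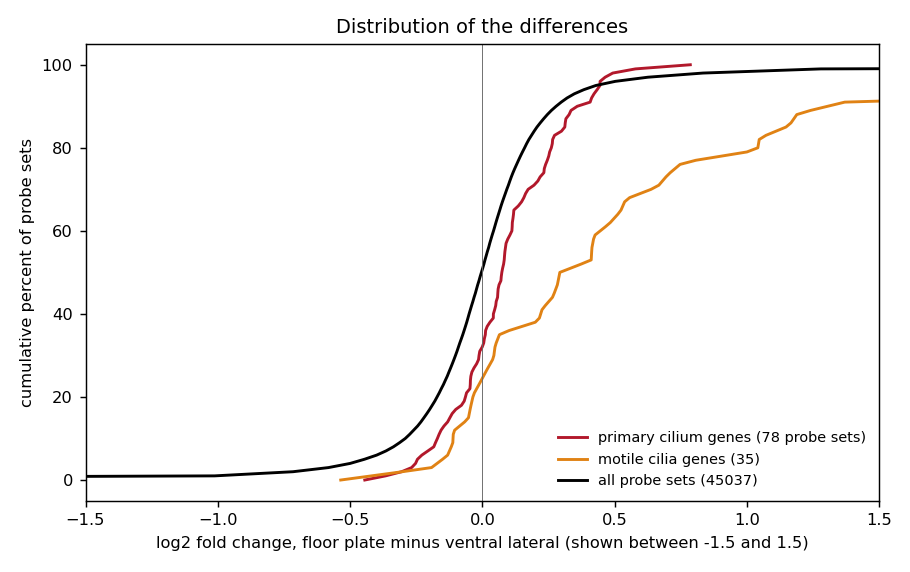
Cumulative percent of probe sets against the log2 fold change (floor plate minus ventral lateral, axis limited to -1.5 to 1.5) for 78 probe sets of primary cilium genes, 35 of motile cilia genes and all 45037 tested. The line of the primary cilium genes crosses 50% at 0.073, that of the motile cilia genes at 0.29 and that of all probe sets at -0.0040.

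**Figure D2:**
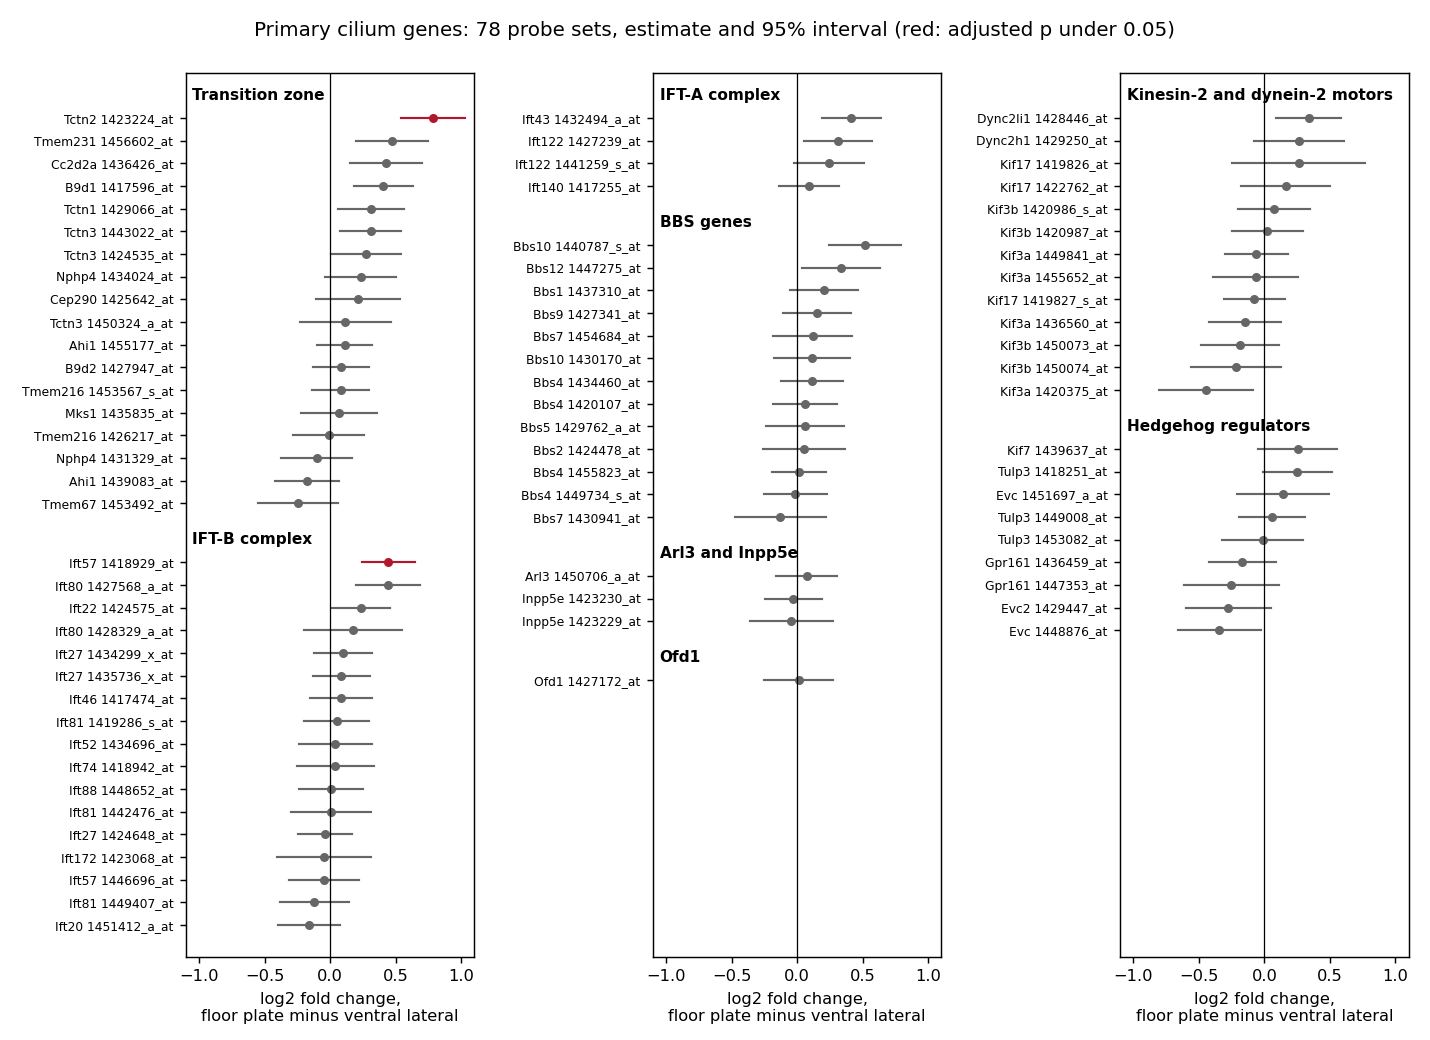
Log2 fold change (floor plate minus ventral lateral, point) with its 95% interval (line) for each of the 78 probe sets, by complex, with the highest on top in each. The 2 red probe sets, of Tctn2 and Ift57, passed the threshold, and 53 of the 78 points lie to the right of 0.

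Transition zone genes held the highest value of the set. They numbered 13 genes with 18 probe sets, of which 1 was higher and none lower (limma), with a median log2 fold change of 0.17. For 7 of the 18 the floor plate values lay above all ventral lateral values, and for 1 below. These were 38.9% and 5.56%, against 11.5% and 11% of all probe sets. Tctn2 encodes a tectonic, a membrane-associated protein of the gate that is needed in mice for Hedgehog signalling. Its log2 values were 0.60, 0.34 and 0.35 in floor plate, against -0.34, -0.34 and -0.39 in ventral lateral samples. The groups lay far apart, with ventral lateral samples close together and floor plate replicate 1 above the other two. The difference was 1.72-fold, higher in floor plate, with a log2 fold change of 0.79 (SE 0.11, limma adjusted p = 0.00608). It passed without each sample in turn, with adjusted p of 0.0166 to 0.0293.

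The promoter windows of Tctn2 and of its transition zone partner Tmem231 are shown because both hold a match to the X-box, the site bound by RFX factors, which are known for switching on cilium genes. The windows run from 250 bases before to 50 after the gene's start in RefSeq, GRCm38.p6. Capitals mark the match to the 14-base form that was searched, which has a fixed spacing. That of Tctn2 lies at chr5:124598499-124598798 on the plus strand and that of Tmem231 at chr8:111933764-111934063 on the minus strand.
Tctn2: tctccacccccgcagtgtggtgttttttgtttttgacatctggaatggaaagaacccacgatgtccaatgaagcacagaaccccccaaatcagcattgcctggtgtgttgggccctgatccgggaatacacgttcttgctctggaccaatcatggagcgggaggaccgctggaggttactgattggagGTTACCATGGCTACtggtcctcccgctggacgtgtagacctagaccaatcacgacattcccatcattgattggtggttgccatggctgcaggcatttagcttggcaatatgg
Tmem231: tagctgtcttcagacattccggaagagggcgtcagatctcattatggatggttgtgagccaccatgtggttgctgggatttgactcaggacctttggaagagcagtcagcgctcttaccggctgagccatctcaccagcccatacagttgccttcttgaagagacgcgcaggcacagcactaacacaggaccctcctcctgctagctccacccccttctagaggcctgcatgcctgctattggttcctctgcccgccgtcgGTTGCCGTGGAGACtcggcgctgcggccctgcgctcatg

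Tmem231 encodes a membrane protein of the same gate, in the group often called the MKS module. Its log2 values were 0.13, 0.19 and 0.44 in floor plate, against -0.34, -0.19 and -0.13 in ventral lateral samples, without overlap. The log2 fold change of 0.47 (SE 0.12) missed the threshold (limma adjusted p = 0.0756). The single probe set of Tctn1, a second tectonic, gave 0.17, 0.19 and 0.061 in floor plate and -0.34, -0.061 and -0.12 in ventral lateral samples (log2 fold change 0.32, adjusted p = 0.188 by limma). The following 3 genes were picked out after their values were seen. B9d1, a B9-domain protein of the module, had a log2 fold change of 0.41 (95% interval 0.18 to 0.63, limma adjusted p = 0.0643) with separated groups. Cc2d2a, a coiled-coil and C2-domain protein, had 0.43 (0.15 to 0.70, limma adjusted p = 0.107), also separated. Tctn3, the last of the tectonics, had 0.31, 0.27 and 0.12 on its 3 probe sets, of which the first had separated groups (limma adjusted p = 0.162 for that one).

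The MKS module was put together after these values were seen, from the tectonics, B9d1, B9d2, Tmem231, Tmem67, Tmem216, Cc2d2a and Mks1, so its counts are only a description. Of its 13 probe sets, 11 had a positive log2 fold change, the median was 0.27, and 6 of its 10 genes had a probe set with floor plate values above all ventral lateral ones. Not all of it went that way. Tmem67, encoding meckelin, had a log2 fold change of -0.24 with overlapping groups (limma adjusted p = 0.42), and Mks1 and B9d2 had 0.070 and 0.084. The 2 probe sets of Tmem216, a further membrane protein of the gate, had 0.080 and -0.0098 (limma adjusted p = 0.759 and 0.98). Of the transition zone genes outside the module, Cep290, which links membrane and microtubules, had 0.21 (limma adjusted p = 0.52), and the 2 probe sets of Nphp4, a nephrocystin, had 0.23 and -0.10. Ahi1, encoding jouberin, had separated groups on both of its probe sets but in opposite directions, at 0.11 and -0.18, neither past the threshold (limma adjusted p = 0.627 and 0.485).

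**Figure D3:**
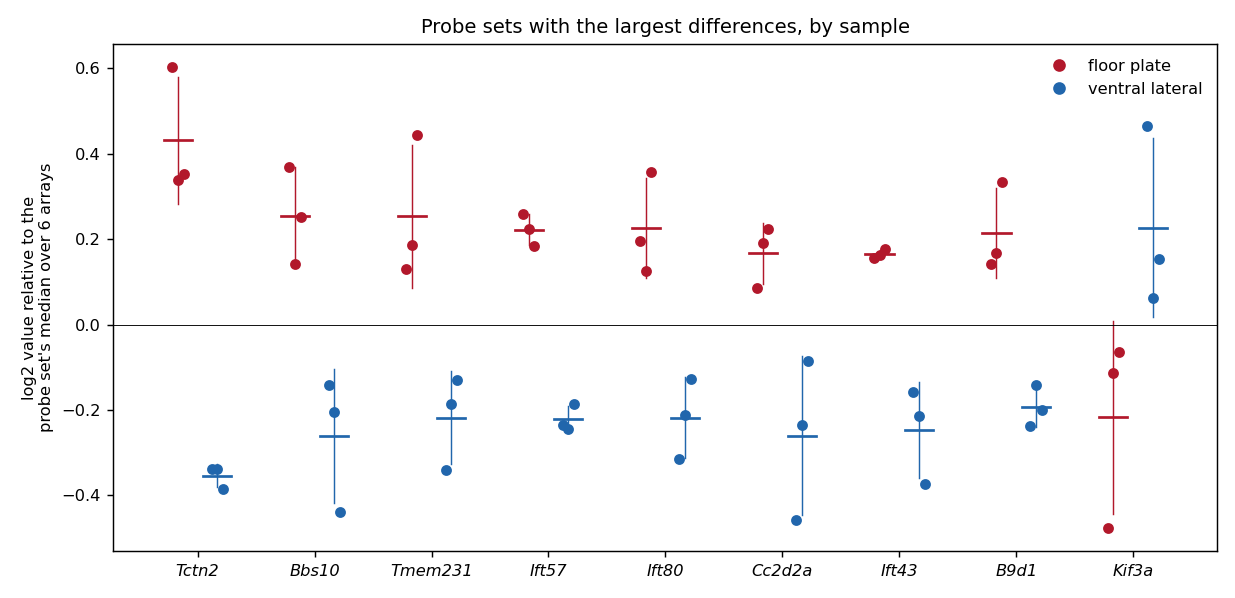
Log2 value relative to the probe set's median over 6 arrays for the 8 probe sets with the highest log2 fold changes and the 1 with the lowest, in 3 floor plate (red, left) and 3 ventral lateral samples (blue, right). Points are samples, bars the mean and thin lines 1 SD; the groups are separated for each of the 9, and only Tctn2 and Ift57 passed the threshold.

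IFT-B, the outward-moving particle, was represented by 11 genes with 17 probe sets, of which 1 was higher and none lower (limma), and the median log2 fold change was 0.041. Ift57 encodes a peripheral subunit of the complex, also known from mice as needed for Hedgehog signalling. One of its probe sets had log2 values of 0.26, 0.22 and 0.19 in floor plate, against -0.24, -0.25 and -0.19 in ventral lateral samples. Each group was tight, and the difference was 1.36-fold (log2 fold change 0.44, SE 0.087, limma adjusted p = 0.0298). The other probe set of Ift57 gave -0.046 with overlapping groups (limma adjusted p = 0.899). The call was lost without any 1 of the 6 samples, with log2 fold changes of 0.43 to 0.46 and adjusted p of 0.0754 to 0.107, and in the fit of the mean of all probe sets of a gene. The promoter window of Ift57, at chr16:49699044-49699343 on the plus strand (RefSeq, GRCm38.p6), also holds a match to the form searched, in capitals. Forms with another spacing were not searched and are not marked.
Ift57: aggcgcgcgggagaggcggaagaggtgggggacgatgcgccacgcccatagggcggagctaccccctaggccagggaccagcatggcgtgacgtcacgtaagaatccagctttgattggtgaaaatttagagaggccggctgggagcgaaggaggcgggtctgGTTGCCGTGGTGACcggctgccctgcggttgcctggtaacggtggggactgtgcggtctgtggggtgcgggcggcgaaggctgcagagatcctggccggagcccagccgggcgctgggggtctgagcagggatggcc

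Ift80, another peripheral subunit, came next in IFT-B, and was picked out after its values were seen. Its values were 0.20, 0.13 and 0.36 in floor plate, against -0.31, -0.21 and -0.13 in ventral lateral samples (log2 fold change 0.44, limma adjusted p = 0.0625). Its other probe set gave 0.17 with overlapping groups. Ift22, a small GTPase of the complex, had 0.23 with separated groups (limma adjusted p = 0.273). At the other end, Ift20, which also works at the Golgi, had -0.16 with floor plate values below all ventral lateral ones (limma adjusted p = 0.51).

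Other IFT-B subunits lay near 0, and none of the next 4 passed the test. Ift88, whose loss in mice removes cilia, had log2 values of 0.18, -0.0092 and -0.10 in floor plate, against -0.012, 0.052 and 0.0092 in ventral lateral samples. Its log2 fold change was 0.0062, with a 95% interval of -0.24 to 0.25 (limma adjusted p = 0.986). Ift172, at 0.31, -0.025 and -0.21 in floor plate and -0.059, 0.025 and 0.25 in ventral lateral samples, had -0.045 with an interval of -0.40 to 0.31 (limma adjusted p = 0.929). Ift52 and Ift74 had 0.041 each. In these 4 genes, set side by side after their values were seen, floor plate replicate 1 was the highest and replicate 3 the lowest of the floor plate samples. Over all 17 IFT-B probe sets, replicate 1 was the highest floor plate sample in 9 and replicate 3 the lowest in 7. Ift46, for example, was highest in replicate 2, at 0.070, 0.094 and -0.070 in floor plate, against 0.070, -0.082 and -0.14 in ventral lateral samples (log2 fold change 0.083). The 3 probe sets of Ift27, a small GTPase of the complex, had log2 fold changes of 0.098, 0.087 and -0.040, and those of Ift81, a tubulin-binding subunit, had 0.049, 0.0036 and -0.12. None of the probe sets of Ift46, Ift27 and Ift81 passed (limma adjusted p of 0.687 to 0.993). For Ift172, Ift74, Ift52 and Ift88, the SD in floor plate was 0.26, 0.23, 0.19 and 0.14 in that order, and in ventral lateral samples it was 0.16, 0.019, 0.040 and 0.033. Within these 4 genes the spread among floor plate samples was thus larger than the difference between regions.

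**Figure D4:**
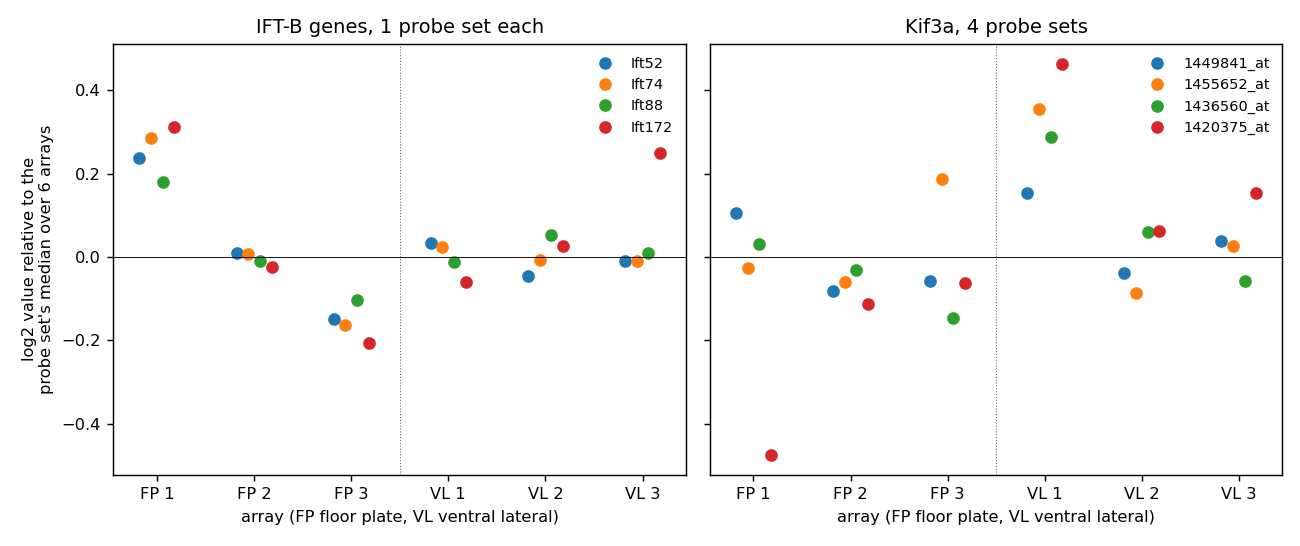
Log2 value relative to the probe set's median, by array, for 4 IFT-B genes (left) and the 4 probe sets of Kif3a (right). Arrays 1 to 3 of each region are separate samples whose numbers have no stated order. Floor plate replicate 1 is the highest and replicate 3 the lowest floor plate sample in all 4 IFT-B genes, and ventral lateral replicate 1 is the highest of all 6 arrays for each Kif3a probe set.

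IFT-A, the particle of the return path, had 3 genes with 4 probe sets, none past the threshold (limma), and all 4 log2 fold changes were positive, with a median of 0.28. At an unadjusted p under 0.05, 2 of the 4 were higher and none lower, against 8.37% and 8.12% of all probe sets. Ift43, a small subunit, was picked out after its values were seen. It was at 0.16, 0.16 and 0.18 in floor plate, against -0.16, -0.21 and -0.37 in ventral lateral samples. The floor plate values were almost the same (SD 0.010) and the groups separated, and the log2 fold change of 0.41 lay just beyond the threshold (SE 0.097, limma adjusted p = 0.0591). Ift43 had a single probe set, so fits with 1 value per gene kept its log2 fold change. In the fit of the mean of all probe sets of a gene it passed (limma adjusted p = 0.0252 over 18193 genes). There 8.13% of all genes were called. It also passed with the lowest-numbered probe set of each gene (limma adjusted p = 0.0431, 6.46% of all genes called). With the most variable probe set of each gene it missed (limma adjusted p = 0.0658, 7.8% of all genes called). The 2 probe sets of Ift122, a core subunit, had 0.31 and 0.24, and Ift140 had 0.089 (limma adjusted p of 0.205, 0.358 and 0.735).

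Of the motors, with 5 genes and 13 probe sets, none passed the threshold (limma), and 1 was higher and 1 lower at an unadjusted p under 0.05. Each was 7.69% of the 13, near the 8.37% and 8.12% of all probe sets. The dynein-2 genes, which encode the return motor, had positive values. Dync2li1, its light intermediate chain, had 0.34 with separated groups (95% interval 0.088 to 0.59, limma adjusted p = 0.155). Dync2h1, its heavy chain, was at 0.32, 0.011 and -0.011 in floor plate, against -0.34, -0.23 and 0.097 in ventral lateral samples, with overlap (log2 fold change 0.26, limma adjusted p = 0.452). The kinesin-2 gene Kif3a, whose motor also works in axons, gave the lowest value of the whole set. That probe set was at -0.48, -0.11 and -0.063 in floor plate, against 0.46, 0.063 and 0.15 in ventral lateral samples (log2 fold change -0.44, SE 0.15, limma adjusted p = 0.193). Its other 3 probe sets had -0.15, -0.065 and -0.063 with overlapping groups. All 4 probe sets were highest in ventral lateral replicate 1, as were 2 of the 4 of Kif3b, whose values ran from -0.22 to 0.075. The 3 probe sets of Kif17, a second kinesin-2 motor, ran from -0.075 to 0.26.

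Of 27 probe sets of 12 neuron markers, such as Stmn2 and Syt1, none was higher and 4 were lower in floor plate (limma). Of the 27 log2 fold changes 7 were positive and 20 negative, and the median was -0.38. Their mean value was -0.25, -0.023 and -0.25 in floor plate, against 0.37, 0.21 and -0.045 in ventral lateral samples, so the regions overlapped, with floor plate replicate 2 above ventral lateral replicate 3, and the highest mean was in ventral lateral replicate 1. Their part in the values of Kif3a and Kif3b was not tested. Of 35 motile cilia probe sets the mean was 0.29, 0.24 and 0.35 in floor plate, against -0.35, -0.30 and -0.36 in ventral lateral samples. The part of motile ciliated cells in the values of Tctn2 and Ift57 was not tested either. Foxj1, which directs motile ciliogenesis, was at 1.22, 1.21 and 1.47 in floor plate, against -2.38, -1.21 and -2.23 in ventral lateral samples.

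BBS genes had 8 members with 13 probe sets, none past the threshold (limma), and a median log2 fold change of 0.11. At an unadjusted p under 0.05, 2 were higher, or 15.4%, and none lower, against 8.37% and 8.12% of all probe sets. Of the 13 values 11 were positive. Bbs10, a chaperonin-like protein needed to assemble the BBSome, the coat complex of the BBS proteins, had 0.37, 0.14 and 0.25 in floor plate, against -0.14, -0.20 and -0.44 in ventral lateral samples. The groups were separated, at a log2 fold change of 0.52 (SE 0.12, limma adjusted p = 0.0532). By the ending of its name (_s_at) this probe set matches several transcripts, and the other probe set of Bbs10 gave 0.11 with overlap. Of the 78 probe sets 17 have a name ending in _s_at, _x_at or _a_at, and these endings differ in meaning. Bbs12, also chaperonin-like, had 0.33 with separated groups (limma adjusted p = 0.246). The subunits of the BBSome among these 8 genes ran from -0.13 to 0.21. A further subunit, Ttc8, lay outside the choice of genes and was higher in floor plate, as described below. The 4 probe sets of Bbs4 ran from -0.016 to 0.11, with intervals that all lay inside -0.26 to 0.35. Bbs1 had 0.21 with separated groups (limma adjusted p = 0.434). Bbs2, Bbs5 and Bbs9 had 0.051, 0.058 and 0.15, and the 2 probe sets of Bbs7 had 0.12 and -0.13.

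The genes that tie the cilium to Hedgehog signalling numbered 5 with 9 probe sets, and none passed the threshold (limma). The median log2 fold change was -0.013, with 4 values positive and 5 negative. At an unadjusted p under 0.05, 1 was lower, or 11.1%, and none higher, against 8.12% and 8.37% of all probe sets. Evc and Evc2 form a complex near the base of the cilium that promotes the response to Hedgehog. Evc was at 0.030, -0.20 and -0.33 in floor plate, against -0.030, 0.25 and 0.30 in ventral lateral samples, so the groups overlapped (log2 fold change -0.34, 95% interval -0.66 to -0.025, limma adjusted p = 0.263). Its other probe set went the other way, at 0.14 (interval -0.21 to 0.49). Evc2 was at 0.046, -0.046 and -0.17 in floor plate, against -0.047, 0.28 and 0.42 in ventral lateral samples (log2 fold change -0.27, limma adjusted p = 0.393). In both genes, ventral lateral replicate 1 lay within the range of the floor plate samples.

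The negative regulators did not share a direction. Gpr161, a ciliary receptor that holds the pathway off, had -0.25 and -0.17 on its 2 probe sets (limma adjusted p = 0.496 and 0.531). Tulp3, which brings Gpr161 into the cilium, had 0.25, 0.058 and -0.013 on its 3, of which the first had separated groups (limma adjusted p = 0.33). Kif7, a kinesin that organises the ciliary tip and the Gli factors, was at 0.14, 0.11 and -0.018 in floor plate, against -0.13, -0.41 and 0.018 in ventral lateral samples (log2 fold change 0.25, limma adjusted p = 0.395). Around them, 27 probe sets of Hedgehog reception genes had 1 higher and 14 lower in floor plate (limma), with Gli1, a target gene of the pathway, at -2.28. Smo, the transducer that acts inside the cilium, did not pass on any of its 3 probe sets (log2 fold changes of 0.46, 0.23 and -0.014, limma adjusted p of 0.239 to 0.982).

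The genes of membrane cargo and of the basal body lay close to 0. Arl3, a GTPase that releases lipid-modified cargo inside the cilium, had 0.071 (95% interval -0.16 to 0.30). Inpp5e, a lipid phosphatase of the ciliary membrane, had -0.030 and -0.046 on its 2 probe sets (intervals -0.24 to 0.19 and -0.36 to 0.27). Ofd1, a protein of the basal body and centriolar satellites, had 0.011 (interval -0.25 to 0.28). None of these 4 probe sets passed (limma adjusted p of 0.801 to 0.978).

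Probe sets of a gene did not always share a sign. Of the 48 genes, 19 had more than 1 probe set, and for 12 of the 19 the log2 fold changes included both signs. The share among all genes of the array was not counted. At a median SE of 0.11, values near 0 can take either sign. None of the 48 genes had calls in both directions. Of the 2 genes with a call, Tctn2 had a single probe set, and the second probe set of Ift57 did not follow the first. With 1 value per gene, the count differed between 3 ways of taking that value. Ift43, B9d1 and Tmem231 have 1 probe set each, so their log2 fold changes were the same in all 3 fits. Only their SE and adjusted p changed. Averaging over the probe sets of each gene gave 4 higher genes, Tctn2, Ift43, B9d1 and Tmem231, and none lower, where 8.13% of 18193 genes were called. The probe set with the largest variance gave 2, Tctn2 and Ift57 (7.8% of all genes), and the lowest-numbered one gave 5, Tctn2, Ift57, Ift43, B9d1 and Ift80 (6.46% of all genes). Tctn2 was the 1 gene called in all 3 of these fits and in each other fit run at an adjusted p under 0.05. At an adjusted p under 0.01 it was the only call (1 probe set, where 2.12% of all passed), at under 0.1 there were 7 (7% of all), and with at least 2-fold added to the threshold of 0.05 there was none (2.27% of all).

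Partners of these complexes that the choice of genes did not include were described from a list. This list of other cilium genes had 51 with a probe set, and of their 114 probe sets 6 were higher and none lower in floor plate (limma), or 5.26%, against 2.7% and 2.01% of all probe sets. At an unadjusted p under 0.05, 14 were higher and 5 lower, or 12.3% and 4.39%, against 8.37% and 8.12% of all probe sets. The median log2 fold change was 0.018, with a range of -0.78 to 1.63. Floor plate values lay above all ventral lateral values for 20 probe sets and below them for 7. These were 17.5% and 6.14%, against 11.5% and 11% of all probe sets. Ttc30b, encoding the IFT-B subunit also named IFT70, had 0.88, 0.61 and 1.05 in floor plate, against -0.80, -0.61 and -0.93 in ventral lateral samples. This was a 3.09-fold difference, with a log2 fold change of 1.63 (SE 0.14, limma adjusted p = 0.000933). Tmem107, a transition zone protein, was higher on 2 of its 3 probe sets (0.80 and 0.73, limma adjusted p = 0.0229 and 0.0129), with the third at 0.30. Ttc8, the BBSome subunit BBS8, was at 0.17, 0.39 and 0.39 in floor plate, against -0.42, -0.17 and -0.69 in ventral lateral samples (log2 fold change 0.75, limma adjusted p = 0.031).

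Further genes of that list passed on 1 probe set each. Intu, a planar polarity effector needed for cilia, had 0.52 (limma adjusted p = 0.0189), with 0.49, 0.37 and 0.27 on probe sets that missed the threshold. Hspb11, the IFT-B subunit IFT25, had 0.46 (limma adjusted p = 0.0357), with 0.062 on its other probe set. Lower values that missed the threshold were named after they were seen. One probe set of Tub, a tubby protein related to Tulp3, had the lowest value of the list at -0.78 with overlapping groups (limma adjusted p = 0.142), and its other one had 0.056. Ttbk2, a kinase that starts ciliogenesis, had -0.53, -0.11 and 0.40 on its 3 probe sets (limma adjusted p of 0.138 to 0.67). Ttc21b, an IFT-A subunit, had -0.47 and 0.14 (limma adjusted p = 0.166 and 0.531), with separated groups in opposite directions. Ccp110, which caps centrioles, had -0.34 with separated groups (limma adjusted p = 0.0909). The count of higher probe sets in this list fell to 1 without floor plate replicate 1 or 3 or ventral lateral replicate 1, and to 3 without replicate 2 of either region. Without floor plate replicate 2, 1 probe set of the list was lower.

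A sequence feature that the choice of genes did not use was looked up in their promoters. RefSeq promoter windows (300 bases, GRCm38.p6) were matched to 43 of the 48 genes. A loose form of the X-box was searched on both strands. In it the letters given in capitals in the matches were fixed and those in lower case could be any base. Its length was fixed at 14 bases, so forms with another spacing were not searched and a gene without a match may hold one. A match was found for 13 of the 43 genes, or 30.2%, against 673 of 27025 genes with a window, or 2.49%. Among genes with a window and a probe set on the array the share was 3.06%. The 13 genes held 14 matches, 4 of which read as a match on both strands, and 12 of the 14 had their centre within 100 bases of the gene's start. They are listed because the 2 genes that passed the test both hold one, with the fixed letters of the motif in capitals and in the direction of the motif.
Tctn2: GTagCCatgGtAAC
Tmem231: GTctCCacgGcAAC
Ift57: GTcaCCacgGcAAC
Tctn1: GTtgCCcggGcAAC
Ift22 (site 1): GTagCCcagGaAAC
Ift22 (site 2): GTcgCCgtgGaAAC
Nphp4: GTctCCtagGtAAC
Bbs1: GTcgCCttgGcAAC
Bbs7: GTtgCCttgGaAAC
Bbs4: GTcgCCcggGaAAC
Ahi1: GTtaCCtagGcAAC
B9d2: GTtgCCccaGcAAC
Tmem216: GTccCCatgGaAAC
Mks1: GTtgCCaggGgAAC

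The median of the log2 fold change, averaged over the probe sets of a gene, was 0.084 for the 13 genes with a match, ranging from -0.033 to 0.79, and 0.065 for the 30 without, ranging from -0.27 to 0.43. A match is a description of the letters and says nothing on binding in these tissues. Among the RFX factor genes, 2 of 13 probe sets were higher and none lower in floor plate (limma), with a median log2 fold change of 0.012. Groups were separated upward for 2 and downward for 2, or 15.4% each, against 11.5% and 11% of all probe sets. One called probe set was of Rfx2, at 0.38, 0.20 and 0.28 in floor plate, against -0.20, -0.32 and -0.27 in ventral lateral samples (log2 fold change 0.55, limma adjusted p = 0.0189). The other 3 probe sets of Rfx2 had 0.21, 0.18 and -0.18 and missed the threshold. The other called probe set was of Rfx4 (log2 fold change 0.67, limma adjusted p = 0.00835), which was named after its values were seen, as were Rfx7 and Rfx1. The other probe set of Rfx4 had -0.042 (limma adjusted p = 0.929). The downward ones, neither past the threshold, were of Rfx7 at -0.37 and Rfx1 at -0.15 (limma adjusted p = 0.266 and 0.461). Their other probe sets had -0.096 and 0.0049, and Rfx3 had 0.21 and 0.20 on its 2 probe sets with overlapping groups.

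**Figure D5:**
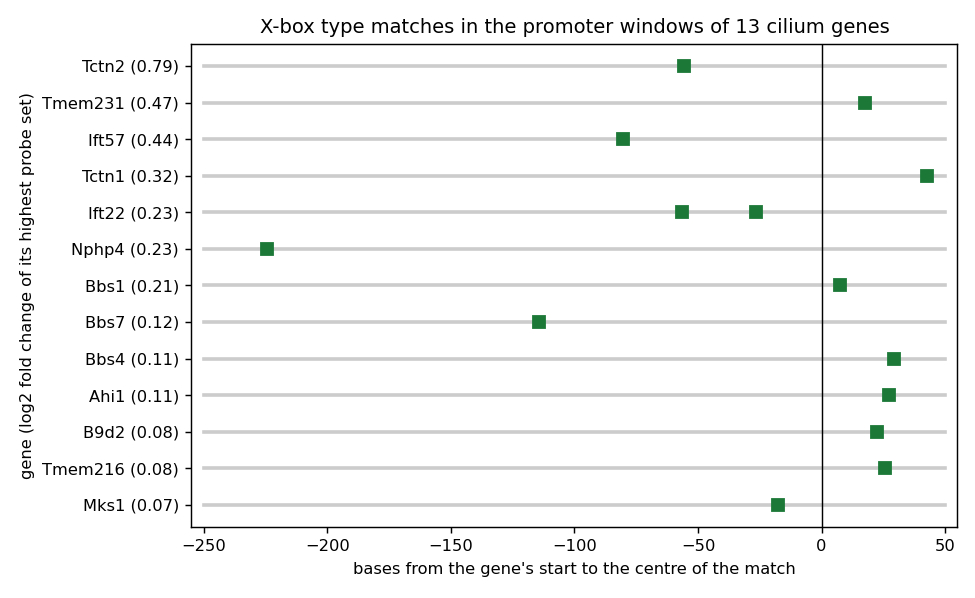
Position of X-box type matches (squares) in the promoter windows (grey lines, 250 bases before to 50 after the gene's start) of 13 cilium genes, ordered by the log2 fold change of the highest probe set of the gene, given in brackets. Of the 14 matches 12 lie within 100 bases of the start. Tctn2, Tmem231 and Ift57 are at the top of these 13, Ift57 by 1 probe set only, since its other one had -0.046. Genes without a match are not drawn, among them Bbs10, whose highest probe set had 0.52.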

How the data were processed

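RNA of 6 samples, 3 per region, was measured on Affymetrix arrays. The authors made the deposited values with RMA, per the submitters' processing notes, with no version named. The deposited values, taken as log2, were found to be centred: 100% of 45101 probe sets had a median across arrays that differed from 0 by at most 1e-05. Log base, centring step and direction are not stated. No dim-probe filter and no new background correction could be made from such values. Array medians lay between -0.0031 and 0.0045.

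Gene names came from GEO's annotation of the platform (34945 with 1 symbol, 932 with several, 9160 with none, 64 controls left out). All 78 member probe sets were found in a RefSeq gene table of GRCm38.p6, with 0 names changed. All 45037 probe sets were fitted together in limma 3.58.1 (lmFit, eBayes; R 4.3.3), floor plate minus ventral lateral, with Benjamini-Hochberg adjustment and a threshold of 0.05. The probe set was the unit because choosing 1 per gene by its variance favours probe sets that differ. The fit was tested on simulated data. The alternatives changed normalization, replicate block, array weights, probe sets, samples, thresholds and the unit. Named genes were members past the threshold, the 3 highest and 3 lowest probe sets, genes whose probe sets differed in sign with 1 past the threshold and a fixed set; all other genes given with values were named after their values were seen. The members and lists were chosen with earlier results of these data known. Python 3.11.15, pandas 2.3.3 and matplotlib 3.10.9 were used for names and plots.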

Additional observations from a re-analysis of the deposited data

How the results depend on the processing

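The count of 2 higher probe sets, of 2 genes, became 3 after quantile normalization, where Bbs10 passed (5.02% of all probe sets called in either direction), and 4 when only probe sets with 1 symbol were tested, where Bbs10 and Ift43 passed (6.04% of all), against 4.71% otherwise. It was 1 with the replicate block (4.23% of all) and 1 without each sample in turn (2.8% to 3.69% of all), in each case Tctn2 alone; under the block Ift57 had an adjusted p of 0.0836 (limma). Same-numbered samples deviated with correlations of 0.0096, 0.12 and 0.11, against -0.15 to 0.027 for the other pairs. Replicates 2 and 3 of each region correlated best with their own number, and replicates 1 did not. These values cannot show whether same-numbered samples came from the same embryos. At an adjusted p under 0.01 the count was 1 (2.12% of all probe sets), under 0.1 it was 7 (7% of all), and with a 2-fold minimum it was 0 (2.27% of all). With 1 value per gene it was 4 on the mean of probe sets, 5 on the lowest-numbered and 2 on the most variable one. No fit called a member lower. For other cilium genes the count of 6 higher ran from 1 to 4 without each sample in turn, and that of lower ones from 0 to 1. Of 437 values of 37 named probe sets under the alternatives, 427 kept their side of the threshold, 7 lost a call (all of Ift57) and 3 gained one, and none reversed a called direction; 24 values changed sign with no call on either side. Leaving out a sample leaves fewer arrays in the fit. Signal over background cannot be judged from centred values, so a small difference may also come from a dim probe set; this was not tested.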

Other observations

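Floor plate replicate 1 was the highest of the 3 floor plate samples for 38 of the 78 cilium probe sets, or 48.7%, against 36.6% of all probe sets. Replicates 2 and 3 were the highest for 18 and 22. The mean over the 13 BBS probe sets was 0.16, 0.019 and 0.039 in floor plate replicates 1 to 3, and over the 4 IFT-A probe sets 0.23, 0.088 and 0.096. Markers of dividing cells, which take their cilia apart before mitosis, had none of 18 probe sets past the threshold (limma). At an unadjusted p under 0.05, 3 were higher and none lower, and the median log2 fold change was 0.12. The 3 were 16.7%, where 8.37% of all probe sets were higher and 8.12% lower at that p. These markers had a positive log2 fold change on 17 of the 18. Floor plate values lay above all ventral lateral ones for 4, or 22.2%, and below them for none, against 11.5% and 11% of all probe sets. Their mean was 0.12, 0.002 and 0.060 in floor plate, against -0.16, -0.083 and -0.028 in ventral lateral samples. Among neural progenitor markers 2 of 23 probe sets were higher and 1 lower, with 5 higher and 2 lower at an unadjusted p under 0.05. Of their log2 fold changes 17 were positive and 6 negative, with a median of 0.050 and a range of -0.98 to 2.14. Of markers of non-neural cells, 1 of 22 mesenchyme probe sets was higher and none lower (Twist1, log2 fold change 2.11). Of these 22, 17 had a negative log2 fold change, the median was -0.12, and 1 was higher and 3 lower at an unadjusted p under 0.05. Of 9 endothelial probe sets 1 was lower and none higher (Cldn5, -0.68), with none higher and 2 lower at an unadjusted p under 0.05. Of 14 blood probe sets none was called (limma), with 2 higher and none lower at an unadjusted p under 0.05. Of 4 notochord probe sets none was called, with 2 higher and none lower at an unadjusted p under 0.05. The notochord list includes Shh, which is also in the list of floor plate genes, so it is not a separate set.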
